A study of Mus musculus with 4 samples.

Results

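The C-type lectin receptor genes of the mouse were taken as every protein-coding gene whose symbol begins with Clec or Cd209, together with Mrc1, Mrc2 and Ly75. This gave 43 of 20923 protein-coding genes. The series mapped where PPARγ binds, the nuclear receptor that responds to fatty acids and pairs with RXR, by HT-ChIPmentation, in which a transposase tags immunoprecipitated chromatin while it is still on beads. The cells were alveolar macrophages (AMs) sorted from lavage fluid of WT C57BL/6J mice 9 weeks old, with no treatment, and 2 ChIP libraries made with a Diagenode PPARγ antibody form a single group (libraries 1 and 2 here). A peak is an interval that the authors' caller found enriched in ChIP over input, and its fold enrichment is their linear ratio of ChIP over input. A consensus region joined overlapping peaks of both libraries, and each of the 20233 regions was given to the protein-coding gene whose transcription start site (TSS) was closest to its centre, on mm10. In each library a region took the fold and summit of its highest peak.

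C-type lectin receptors recognise sugars, lipids or proteins through a shared fold, the C-type lectin domain. In myeloid cells they act as uptake receptors, as activating receptors that signal through the kinase Syk, or as inhibitory receptors that recruit phosphatases. AMs meet inhaled fungi and mycobacteria, whose walls carry ligands of several of these receptors. Most of the genes lie in clusters that arose by duplication, so neighbours share a locus and are not independent of each other. A nearest start site names a gene by position and does not show which gene a region acts on, and binding does not measure expression.

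Library 1 held 83787 peaks and library 2 held 28535. The peak lists carry no read counts. The study's supplement gives sequencing totals, which were higher for library 1 and whose values are not used here, so no fold enrichment is weighed by depth, and the labels leave unsaid if each library had its own animals. Among marker genes of cell types, all 8 of AMs had a consensus region (among them Siglecf, Marco and Chil3), against 31.6% of all protein-coding genes. Lung epithelium markers had 2 of 4, lymphocyte markers 0 of 3 and neutrophil markers 1 of 3. Dendritic cell markers had 2 of 4, and markers of monocytes and other macrophages 3 of 4. All sets but the lymphocyte markers thus stood above the share of all genes, so these counts do not identify the cell type. With no contrast between conditions, no test was made, and values are set beside those of all genes or all regions.

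Of the 43 C-type lectin genes, 20 were nearest to at least 1 consensus region (46.5%), against 31.6% of all protein-coding genes. The regions numbered 87. In the library 1 list 26 of the genes had a peak (60.5%), against 60.6% of all genes, and in the library 2 list 24 had one (55.8%), against 34.9% of all genes. The share of lectin genes was thus at the level of all genes in the longer list and above it in the shorter list. A region centred within 3 kb of a TSS was found for 16 of the genes (37.2%), against 22.8% of all genes, and at least 6 regions were found for 7 of them (16.3%), against 4.35% of all genes. A further 7 genes (16.3%) had peaks but no region, and 16 (37.2%) had no peak in either list. The matching shares of all genes were not computed. Only 60.6% of all genes had a library 1 peak, so genes without one are frequent.

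The regions were unevenly divided among subfamilies. The mannose receptor family had 24 regions at 2 of 3 genes, the dectin-1 cluster 27 regions at 5 of 6 genes and the dectin-2 cluster 19 regions at 8 of 9 genes. The Clec2 family had 13 regions at 2 of 8 genes, and all 8 genes of the Cd209 family, which holds the mouse homologues of DC-SIGN and is counted here with Clec4g, had 0. Mrc1 had the most regions, 15, followed by Clec7a and Ly75 with 9 each, Clec2d with 7, and Clec1a, Clec2l and Clec9a with 6 each. Only 0.621% of protein-coding genes had as many regions as Mrc1. This order depended on the definition. When paired peaks had to overlap reciprocally by 50%, Ly75 had 7 regions and Mrc1 5, and when summits had to lie within 100 bp, Mrc1 had 7, Clec2l 6, Clec7a 5, Ly75 3 and Clec2d 1.

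**Figure D1:**
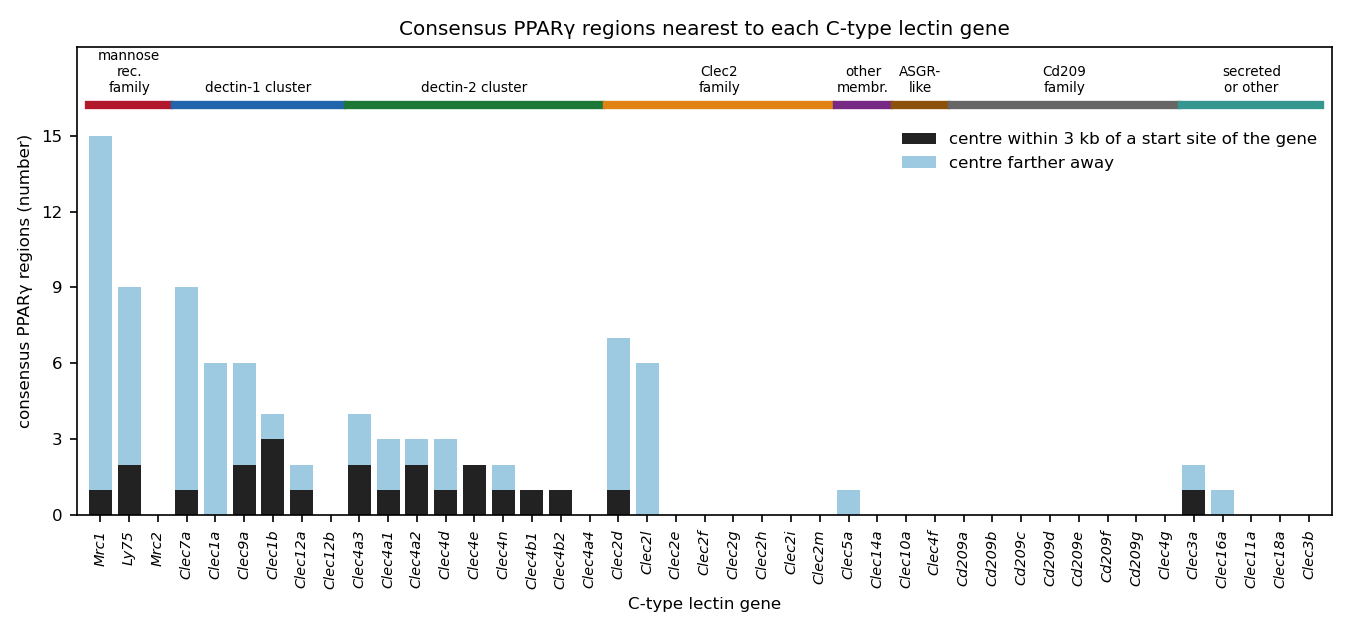
Number of consensus PPARγ regions (vertical axis) nearest to each of the 43 C-type lectin genes (horizontal axis), grouped by subfamily. Dark bars count regions centred within 3 kb of a TSS of the gene and light bars those farther away; Mrc1 reaches 15, and the 8 genes of the Cd209 family have none.

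The genome nearest to the start sites of a gene, its territory, sets how many regions it can receive. The territories of the 43 genes had a median of 44.5 kb, against 48.8 kb for all genes, and held 32.1 regions per Mb, against 7.68 regions per Mb of all territories. These rates are pooled over 2.71 Mb and 2634 Mb. The longest territory of a lectin gene was 400 kb, against 4363 kb among all genes. Long territories weigh most in a pooled rate, which the medians do not show, so the gap in rates is not a gap per gene. Among genes with a territory in the shortest tercile (up to 30.1 kb), 7 of 11 lectin genes had a region, against 25.6% of all genes of that tercile. In the middle tercile 7 of 22 lectin genes had one, against 32.9%, and in the longest tercile 6 of 10, against 36.4%. The middle tercile holds most of the lectin genes and is where their count lay closest to the level of all genes.

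Within the consensus the regions of lectin genes were of ordinary strength. Their median fold enrichment was 6.001 in library 1, against 6.81 over all regions, and 5.63 in library 2, against 5.35 over all regions. The lowest and highest values of the lectin regions were 2.44 and 18.7 in library 1, and 2.92 and 18.2 in library 2. Regions were ranked by the lower of their 2 percentiles of fold enrichment within each list, and 10 of the 87 (11.5%) stood in the top 10% of all regions by this rank. Across the 87 regions, which share loci and are not replicates, the folds of both libraries had a Spearman rho of 0.63 and a Pearson r on the log2 scale of 0.69, against 0.55 and 0.61 across all regions. Summits of the libraries lay a median of 120 bp apart in lectin regions, against 93 bp in all regions.

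**Figure D2:**
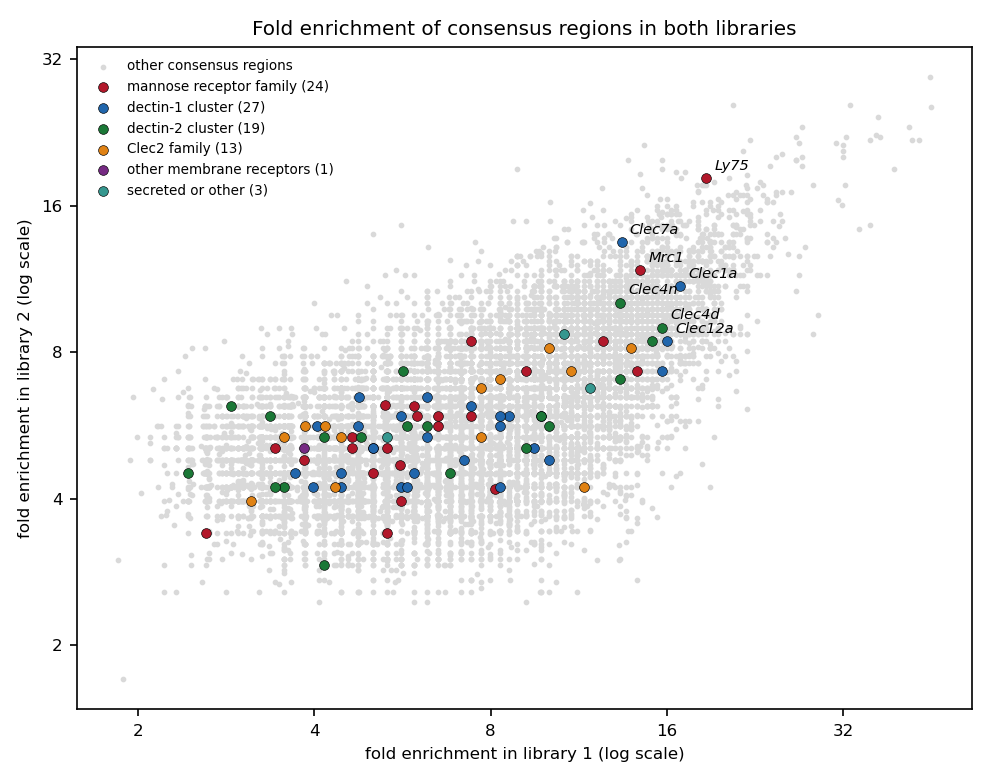
Fold enrichment of each consensus region (the authors' value for its highest peak) in library 1 (horizontal axis, log scale) and library 2 (vertical axis, log scale). The 87 regions of C-type lectin genes are coloured by subfamily over all other consensus regions in grey. The Ly75 region at 18.7 and 18.2 stands highest among the 87 in both libraries, and most coloured points lie in the middle of the grey cloud.

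Most lectin regions lay away from start sites but not far away. By centre, 23 of 87 were within 3 kb of a TSS of their gene (26.4%, 95% Wilson interval 18.3 to 36.6%), against 36.5% of all regions. Among regions with a fold of at least 5 in both libraries no such gap was seen, with 38.3% of lectin regions, against 38.04% of all regions. Distances of 3 to 10 kb held 27.6% of lectin regions, against 16.1% of all regions, and distances of 10 to 30 kb held 37.9%, against 21.4%. Beyond 30 kb there were 8.05% of lectin regions, against 26.0% of all regions. The longest distance was 50.7 kb for lectin regions, against 1653 kb for all regions. Because a region goes to the nearest TSS, its distance is limited by the spacing of genes, and most lectin genes lie in clusters. Introns held 46 centres (52.9%, against 45.3% of all regions), intergenic sequence 26 (29.9%, against 34.2%), exons 9 (10.3%, against 3.16%) and promoters 6 (6.90%, against 17.3%). The sequence around the lectin summits had a median GC content of 39.3%, against 45.3% for all regions.

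Regions over a start site had higher median folds than the rest. A consensus region spanned a TSS of 12 genes, namely Mrc1, Clec7a, Clec2d, Clec12a, Clec1b, Clec4a1, Clec4a2, Clec4a3, Clec4b1, Clec4d, Clec4e and Clec4n. That is 12 of 87 lectin regions (13.8%), near the 15.0% of all regions that spanned a TSS of their gene. These 12 regions had a median fold of 11.3 in library 1 and 7.59 in library 2 and a median width of 1673 bp, against 5.63, 5.35 and 678 bp for the other 75 lectin regions. Over all regions of the genome the same comparison gave 8.29 and 5.91 with 754 bp for those spanning a TSS, against 6.52 and 5.35 with 607 bp for the others. Wide regions were also more frequent among the lectin genes, with 5 of 87 over 4 kb (5.75%), against 1.32% of all regions. The 5 were at Clec4n, Clec7a, Clec4d, Mrc1 and Ly75, and all but that of Ly75 spanned a TSS.

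Short motifs were looked for on either strand, up to 100 bp to each side of the library 1 summit. They were GAGGAAGT for PU.1, the macrophage lineage factor, TTGCNNAA for C/EBP, TGANTCA for AP-1, TGTGGTT for RUNX and AGGTCA, the hexamer that nuclear receptors bind. Another was AGGTCANAGGTCA, the spaced pair of hexamers called DR1 that PPARγ and RXR bind together. No pattern contains another, except that DR1 contains the hexamer, but matches of different patterns can overlap. At least 1 of the PU.1, C/EBP, AP-1 and RUNX patterns was near 29 lectin summits (33.3%), against 34.2% of all summits. C/EBP letters were near 14 (16.1%, against 15.1%), AP-1 letters near 12 (13.8%, against 9.98%), RUNX letters near 6 (6.90%, against 8.02%) and PU.1 letters near 5 (5.75%, against 6.83%). For each of these 4 patterns the share of all regions lay inside the 95% Wilson interval of the lectin share at the library 1 summits. Around the library 2 summits the gaps were wider for AP-1 (16.1%, against 9.53%) and C/EBP (20.7%, against 14.5%). RUNX (4.60%, against 7.29%) and PU.1 (4.60%, against 5.96%) were below all regions there.

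The hexamer was near 6 lectin summits (6.90%, interval 3.20 to 14.2%), against 14.9% of all summits. Around the library 2 summits of the same regions the share was 13.8%, against 15.1%, so the gap was narrower there. No lectin summit had the full DR1, which 0.0643% of all summits had. A stretch with at least 10 of the 12 fixed DR1 letters was near 1 lectin summit (1.15%, interval 0.203 to 6.23%), against 4.57% of all summits, and at least 9 letters were near 10 (11.5%), against 22.04%. A match is a stretch of letters and not a proven site, and these fixed patterns are stricter than a weight matrix.

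**Figure D3:**
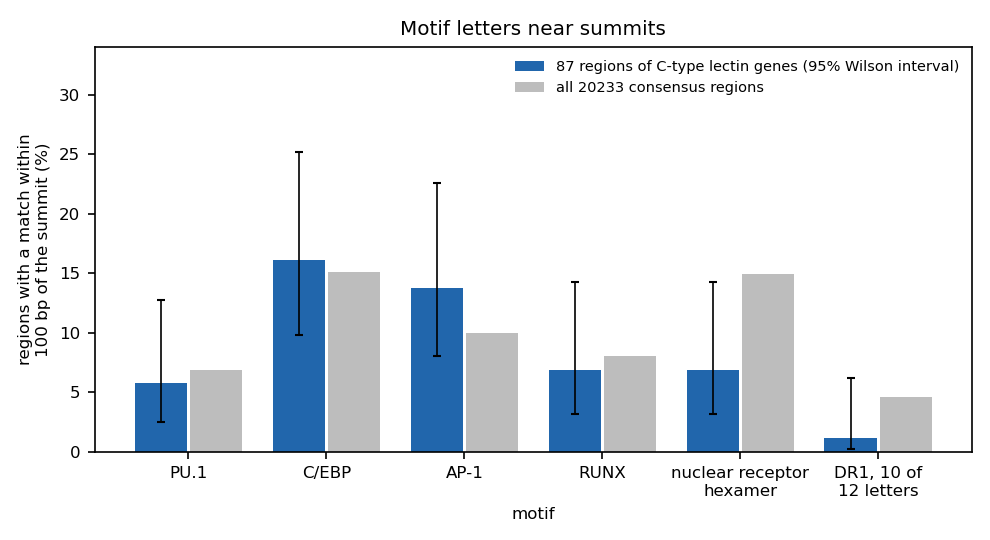
Share of regions (%, vertical axis) with each motif within 100 bp of the library 1 summit, for the 87 regions of C-type lectin genes (blue, with 95% Wilson intervals that cover counting error only) and for all 20233 regions (grey). The hexamer, at 6.90% against 14.9%, shows the largest gap among the motifs drawn.

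The single lectin region with a DR1-like stretch belonged to Clec4d, which encodes MCL, a receptor that pairs with Mincle and binds mycobacterial trehalose dimycolate. It lay 9.02 kb upstream of the Clec4d TSS, with a fold of 5.66 in library 1 and 7.31 in library 2. It is printed because it also holds AP-1 and C/EBP letters; capitals mark, in order, the DR1-like stretch on the minus strand with its hexamer, the AP-1 letters and the C/EBP letters. The other sequence shown beside it comes from a Clec1a intron and is the only one where 2 hexamers adjoin, here with no base between them, so that it is not a DR1; its second run of capitals is C/EBP. All sequences are printed on the plus strand of mm10.
Clec4d (chr6:123252863-123253008): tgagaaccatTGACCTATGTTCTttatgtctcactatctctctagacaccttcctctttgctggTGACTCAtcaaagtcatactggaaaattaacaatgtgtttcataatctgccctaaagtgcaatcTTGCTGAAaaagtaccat
Clec1a (chr6:129437697-129437867): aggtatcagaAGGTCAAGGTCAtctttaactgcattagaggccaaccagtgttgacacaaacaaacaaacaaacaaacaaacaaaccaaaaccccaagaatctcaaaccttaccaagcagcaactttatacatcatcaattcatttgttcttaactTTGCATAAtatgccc

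The strongest lectin region of the series was in an intron of Ly75, which encodes DEC-205, an endocytic receptor that delivers antigen for presentation. It spanned 4754 bp (chr2:60366850-60371603) centred 14.0 kb inside the gene, with a fold of 18.7 in library 1 and 18.2 in library 2, and ranked 71 of 20233. The other 8 Ly75 regions were weaker in both libraries, at 3.43 to 9.18 in library 1 and 4.68 to 8.42 in library 2. The closest to them in strength were in introns 7.86 kb (9.18 and 7.31) and 6.13 kb (7.41 and 8.42) inside the gene, and 3 more lay 17.2 to 20.3 kb inside it. A region of 316 bp in the promoter (6.52 and 5.63) and another 0.656 kb inside the gene (5.92 and 6.19) flanked the TSS without spanning it, and the last lay 24.1 kb upstream. The neighbour Cd302, whose product is another C-type lectin receptor, had 6 regions, the best of which ranked 64, and 2 of them lay over the body of Ly75. A stretch within 100 bp of the library 1 summit of the strongest Ly75 region is shown, which holds the summit of neither library. It pairs PU.1 letters (first capitals) with AP-1 letters (second capitals). The promoter region is shown for its RUNX letters (first) and C/EBP letters (second).
Ly75 (chr2:60369677-60369747): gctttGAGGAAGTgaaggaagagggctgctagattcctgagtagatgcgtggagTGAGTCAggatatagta
Ly75 (chr2:60383457-60383518): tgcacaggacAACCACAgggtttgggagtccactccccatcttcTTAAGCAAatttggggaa

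Mrc1 encodes the mannose receptor CD206, an endocytic receptor for mannose-bearing glycoproteins that AMs are known to carry. Its 15 regions were spread from 27.2 kb upstream to 42.9 kb inside the gene, and 89 peaks of library 1 and 22 of library 2 were nearest to it. Of these, 72 library 1 peaks and 2 library 2 peaks were outside the consensus, so the shorter list was almost wholly repeated by the longer. The best-ranked region, 417 of 20233, was in an intron 20.4 kb inside the gene (chr2:14248901-14250756), with a fold of 14.4 in library 1 and 11.8 in library 2. A region of 4834 bp spanned the TSS (chr2:14228214-14233047) with 12.4 in library 1 and 8.42 in library 2. In library 2 that interval was made of 4 peaks, and in library 1 it was a single peak. Upstream, 4 regions 22.7 to 27.2 kb from the TSS lay in introns of the neighbour Tmem236, and the strongest of them had 14.2 in library 1 and 7.31 in library 2. Another upstream region, 4.92 kb before the TSS, was intergenic (6.001 and 5.91).

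The remaining 8 Mrc1 regions were intronic, between 5.13 and 42.9 kb inside the gene, with folds of 2.61 to 8.14 in library 1 and 3.40 to 5.91 in library 2. All were weaker in both libraries than the region over the TSS. AP-1 letters were near 4 of the 15 Mrc1 summits. The region with the lowest library 1 fold of the gene, with 2.61 in library 1 and 3.40 in library 2, was the only one with both AP-1 (first capitals) and PU.1 letters (second), and the strongest upstream region held RUNX and C/EBP letters that overlap in a single run. Both are printed, with the best-ranked region of the gene, which held none of the patterns and has no capitals. Mrc1 had 8 regions when noncoding genes could also take regions. Mrc2, the third member of the family, had no peak in either library.
Mrc1 (chr2:14252223-14252300): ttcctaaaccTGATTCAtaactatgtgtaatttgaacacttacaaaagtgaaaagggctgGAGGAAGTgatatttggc
Mrc1 (chr2:14204483-14204543): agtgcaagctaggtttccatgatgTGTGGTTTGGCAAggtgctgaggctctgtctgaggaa
Mrc1 (chr2:14250345-14250425): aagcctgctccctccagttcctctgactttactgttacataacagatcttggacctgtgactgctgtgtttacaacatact

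**Figure D4:**
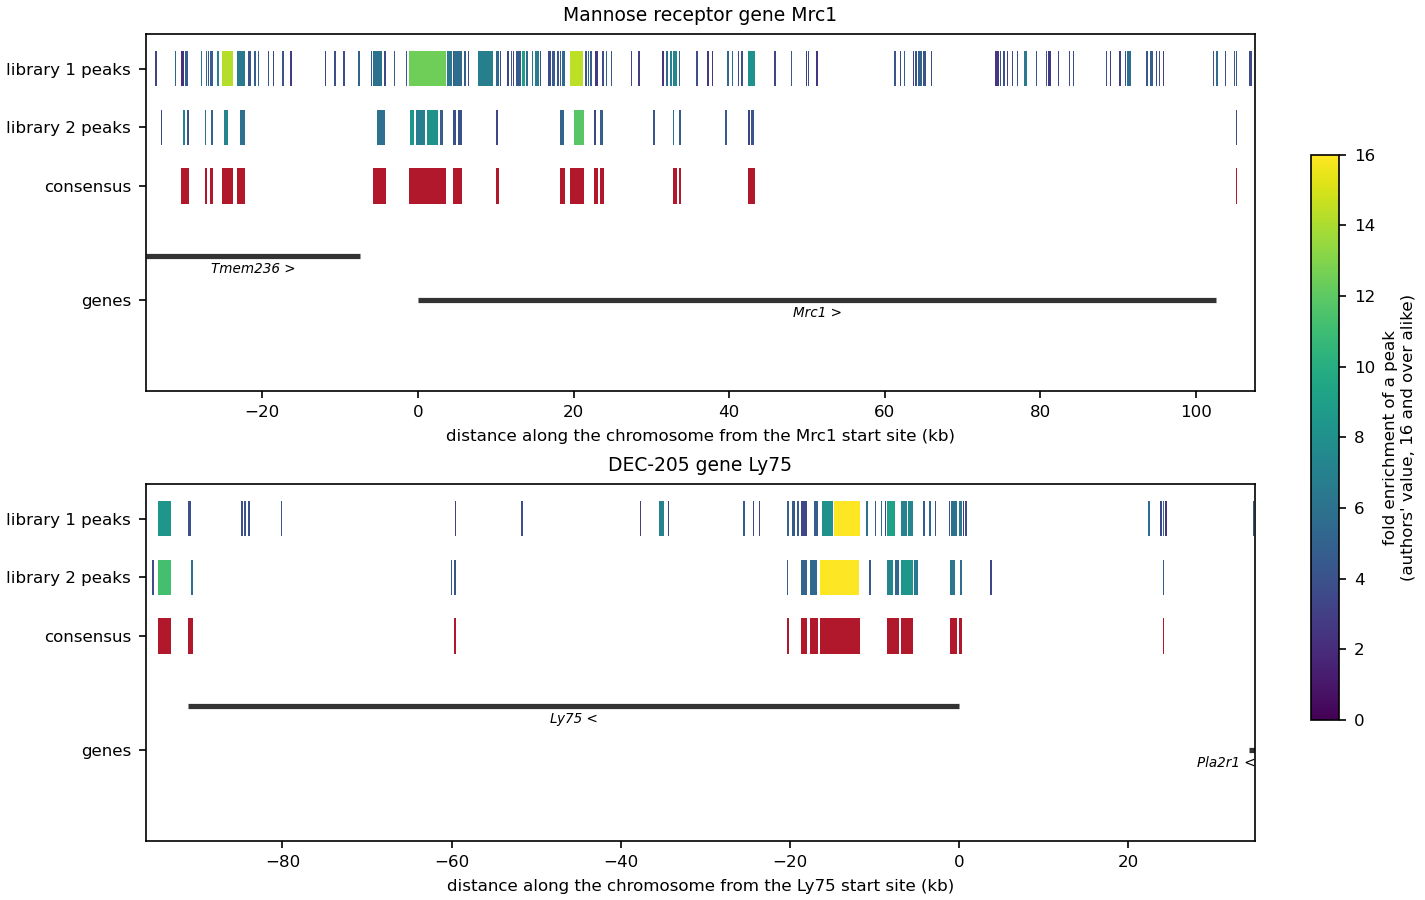
Peaks of library 1 and library 2 (coloured by the authors' fold enrichment), consensus regions (red) and genes along the chromosome around Mrc1 and Ly75, by distance from the TSS (kb, horizontal axis). The intronic Ly75 region of 4754 bp has the highest fold in both libraries, and library 1 has many weak Mrc1 peaks with no partner in library 2.

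The dectin-1 cluster on chromosome 6 was the densest stretch. From Clec1b to Clec7a, 75.5 kb held 22 consensus regions that covered 38.2% of the sequence, against 0.677% of the genome. This was 29.1 regions per 100 kb, against 0.768 per 100 kb of the genome. Among the 5748 windows of 100 kb with at least 1 region, the window from 129400001 to 129500000 on chromosome 6 held 27, and only 6 windows held more, up to 30. The map of both clusters shows these regions standing close together over Clec7a, over the end of Clec1a and over Clec1b.

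Clec7a encodes dectin-1, the receptor for fungal beta-glucan, which signals through Syk. A region of 5170 bp spanned its TSS (chr6:129470393-129475562) with a fold of 13.4 in library 1 and 13.4 in library 2, and it ranked 383. Each library had it as a single peak. The other 8 Clec7a regions were weaker in both libraries, at 4.03 to 8.29 in library 1 and 4.24 to 6.47 in library 2. Of these, 5 lay in introns of the gene between 4.05 and 9.57 kb from the TSS, 2 lay upstream at 3.96 and 6.77 kb, and the farthest, 16.8 kb upstream, was in an intron of Olr1, a scavenger receptor gene that also encodes a C-type lectin domain. Together the regions covered 50.3% of the 27.6 kb territory of Clec7a, the highest share among the 43 genes. The summit of the region over the TSS had none of the motifs, nor did the other 8 summits. The sequence around its library 1 summit is therefore shown without capitals, and this stretch lies inside the gene and does not reach the TSS.
Clec7a (chr6:129472479-129472559): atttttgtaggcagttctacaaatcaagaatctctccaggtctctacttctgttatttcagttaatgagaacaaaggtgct

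Clec1a, which encodes MelLec, a receptor for melanin of Aspergillus conidia, had 6 regions and none within 3 kb of its TSS. The best was over an exon 16.8 kb inside the gene (chr6:129433637-129436862), with 16.9 in library 1 and 10.9 in library 2, and ranked 573. Its other regions inside the gene were at 14.2 kb (4.44 and 4.52) and 20.9 kb (3.71 and 4.52). The 3 upstream regions lay 3.69, 6.30 and 9.11 kb from the TSS, towards Clec7a, with 8.29 to 10.1 in library 1 and 4.24 to 5.91 in library 2. The last of these reached over the end of Clec7a.

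Clec9a encodes DNGR-1, which binds actin filaments exposed on dead cells and is best known on cross-presenting dendritic cells. It also had 6 regions. Its best, with 15.7 in library 1 and 7.31 in library 2 (chr6:129426038-129428288), was over an exon of Clec1a rather than in Clec9a itself. The others had 3.98 to 9.48 in library 1 and 4.24 to 5.91 in library 2, with 2 over Clec9a exons, 1 in an intron of Clec1b and 2 in the 3 kb upstream of the gene, and none spanned the TSS. Clec9a had 1 region when peaks had to overlap reciprocally by 50%, and 2 under the summit rule of 100 bp.

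Clec1b encodes CLEC-2, the podoplanin receptor of platelets. Its 4 regions lay from the TSS to 3.83 kb inside the gene, at 4.74 to 8.59 in library 1 and 4.52 to 6.47 in library 2, and the best-ranked, at 5306, spanned the TSS with 6.24 and 6.47. Clec12a, which encodes an inhibitory receptor for uric acid crystals, had a region over its TSS (chr6:129349534-129351453) with 15.995 in library 1 and 8.42 in library 2, ranked 1932, and a weaker intronic region 13.3 kb inside the gene (7.20 and 4.79). Both were lost when summits had to lie within 100 bp. Clec12b, next to it, had 1 peak in each library, with 3.26 in library 1 and 4.79 in library 2, and they did not overlap. The intronic Clec12a region is shown for its AP-1 (first) and C/EBP letters (second).
Clec12a (chr6:129363386-129363502): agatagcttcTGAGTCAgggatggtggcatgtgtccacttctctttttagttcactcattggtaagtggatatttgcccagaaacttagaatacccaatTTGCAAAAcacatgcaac

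**Figure D5:**
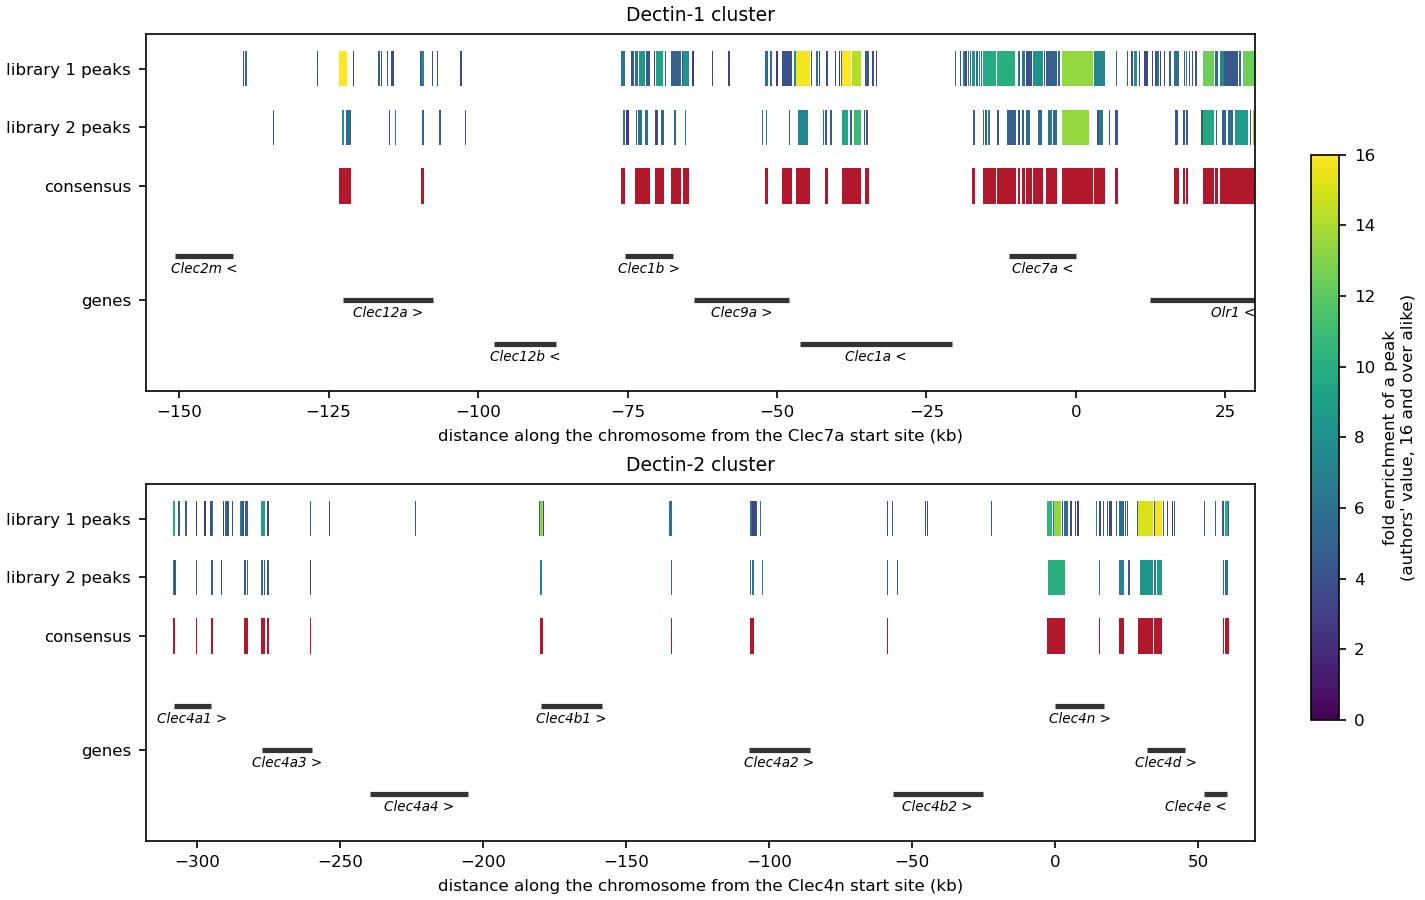
Peaks of library 1 and library 2 (coloured by the authors' fold enrichment), consensus regions (red) and genes along the dectin-1 cluster (top) and the dectin-2 cluster (bottom), by distance from the TSS of Clec7a and of Clec4n (kb, horizontal axis). The 22 regions from Clec1b to Clec7a stand close together, and the best-ranked regions of the dectin-2 cluster lie over Clec4n and Clec4d.

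The dectin-2 cluster, 368 kb from Clec4a1 to Clec4e on chromosome 6, held 19 regions, or 5.16 per 100 kb. Every gene but Clec4a4, an inhibitory receptor gene with 2 peaks in library 1 only, had a region within 3 kb of its TSS. The best-ranked regions were at Clec4n and Clec4d. Clec4n encodes dectin-2, the receptor for fungal alpha-mannan, and Clec4n, Clec4d and Clec4e products signal through the Fc receptor gamma chain encoded by Fcer1g. The widest region of the 43 genes, 6156 bp (chr6:123227037-123233192), spanned the Clec4n TSS with 13.3 in library 1 and 10.1 in library 2, and ranked 865. It was 1 peak in library 2 and 5 in library 1. Neither this region nor the other Clec4n region, 15.5 kb inside the gene with 3.36 and 5.91, was kept when paired peaks had to overlap reciprocally by 50% or when summits had to lie within 100 bp.

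Clec4d had a region of 5134 bp over its TSS (chr6:123258991-123264124) with 15.1 in library 1 and 8.42 in library 2. A neighbouring region, just downstream in an intron (chr6:123264427-123267357), had 15.7 and 8.98 and ranked 1452, the best of the gene. That region held 2 AP-1 matches on either side of C/EBP letters, all in capitals. Clec4e, which encodes Mincle, had 10.1 in library 1 and 5.63 in library 2 over its TSS (chr6:123289278-123290525), ranked 7600, and 4.15 and 5.35 in the adjoining intron.
Clec4d (chr6:123266011-123266068): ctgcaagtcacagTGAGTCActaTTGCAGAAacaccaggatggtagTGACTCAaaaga

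The inhibitory and activating receptor genes in the left part of the cluster had weaker or single regions. Clec4b1, which encodes the activating receptor DCAR, had 1 region, over its TSS (chr6:123049702-123050692), with 13.3 in library 1 and 7.03 in library 2. Clec4a1 (9.77 and 5.91), Clec4a3 (9.18 and 5.07) and Clec4a2 (5.76 and 5.63) also had a region over a TSS. Clec4a2 encodes DCIR, an inhibitory receptor. The TSS region was the best-ranked of Clec4a1 (6585). The best of Clec4a2 (8090) was an intergenic region 27.05 kb upstream, with 6.22 and 5.63, and the best of Clec4a3 (9709) an intergenic region 5.52 kb upstream, with 4.80 and 5.35. Clec4b2 had a single region 1.75 kb upstream of its TSS, with 3.43 and 4.24, ranked 16898, and it was lost with a fold of at least 5.

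Outside these loci, Clec2d, which encodes the ligand of the inhibitory natural killer receptor Klrb1b, had 7 regions. Its best, ranked 2337, spanned the TSS (chr6:129180371-129182455) with 10.1 in library 1 and 8.15 in library 2. An upstream region 8.80 kb before the TSS had 10.96 and 7.31 and is shown for its AP-1 (first) and C/EBP letters (second). The others, 1 of them 6.81 kb upstream and 4 of them 20.1 to 33.1 kb downstream of the TSS, had 3.55 to 8.29 in library 1 and 4.24 to 7.03 in library 2. In the span from Clec2h to Clec2d, 524 kb, 3 of 14 regions belonged to Clec2d, and the other 11 were not nearest to a lectin gene of the set. Klrb1b had 6 regions and Klrb1c had 5. Of the other Clec2 family genes, Clec2e, Clec2h and Clec2m had peaks in at least 1 library but no region, and Clec2f, Clec2g and Clec2i had no peak in either.
Clec2d (chr6:129171856-129171917): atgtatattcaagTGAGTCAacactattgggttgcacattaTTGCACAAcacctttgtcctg

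Clec2l, a member of the family known from brain, had 6 regions, all 24.6 to 50.7 kb downstream of its TSS, with 4 intergenic and 2 in introns of Hipk2, and none touched the gene. The best of them (chr6:38690281-38691365) had 13.9 in library 1 and 8.15 in library 2 and ranked 2221, and the others had 3.12 to 11.6 in library 1 and 3.96 to 6.75 in library 2. Clec3a, known from cartilage, likewise had its best region 27.2 kb upstream (chr8:114390535-114391212), with 10.7 and 8.70 and a rank of 1804, and a weaker one 0.591 kb inside the gene (5.33 and 5.35). Clec16a, which carries the symbol but encodes an endosomal regulator of mitophagy rather than a surface receptor, had 1 region in an intron 5.33 kb inside the gene (chr16:10549942-10551399), with 11.8 and 6.75, ranked 4246. Clec5a encodes MDL-1, which signals through the adaptor encoded by Tyrobp. Its single region was 9.40 kb upstream (chr6:40594734-40595680), with 3.83 in library 1 and 5.07 in library 2, and ranked 14916. With a reciprocal overlap of 50% the single regions of Clec16a and Clec5a were both lost, and that of Clec5a was also lost with a fold of at least 5.

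The lectin genes without a region included some known from other macrophages and dendritic cells. Most protein-coding genes also had none, as 31.6% had a region, and Clec9a, best known on dendritic cells, had 6. In the Cd209 cluster on chromosome 8, 422 kb held 0 consensus regions, against 0.768 per 100 kb of the genome. Clec4g, the LSECtin gene of that cluster, had 1 library 1 peak with a fold of 7.998 and none in library 2, and Cd209a to Cd209g had no peak in either library. Clec10a, which encodes the galactose-type receptor MGL, had 2 library 1 peaks, the higher with 5.33, and none in library 2. Clec4f, a Kupffer cell gene, Clec14a, an endothelial gene, Clec3b, Clec11a and Clec18a had no peak in either library. The absence of a peak says only that none passed the authors' q of 0.05 at the depth of these libraries.

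The start-site sequences of RefSeq (GRCm38.p6), 250 bases before to 50 bases after a TSS, matched 35 of the 43 genes, with 37 promoters in all. Of these, 11 had the TSS inside a consensus region, as had 2993 of 20245 promoters in all. Among those 11, PU.1 letters were in 0 (against 4.64% of the 2993), C/EBP letters in 2 (10.4%), AP-1 letters in 1 (5.88%), RUNX letters in 1 (4.08%) and the hexamer in 1 (12.9%). Among the other 26 lectin promoters, PU.1 letters were in 0 (against 3.18% of all promoters), C/EBP letters in 6 (10.1%), AP-1 letters in 7 (7.09%), RUNX letters in 2 (4.53%) and the hexamer in 6 (14.3%). Clec4a3, among the 11, and Clec2i, among the 26, each entered more than once with overlapping sequences. The same C/EBP letters of Clec2i are therefore counted again, and the AP-1 letters of Cd209f and Cd209g lie in nearly the same sequence. Median GC content was 45.3% in the lectin promoters, against 57.0% in all promoters.

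Genes that act downstream of these receptors often had regions. Of 32 genes for C-type lectin signalling, 27 had a consensus region (84.4%), against 31.6% of all genes. Syk had 21 regions, the best of which ranked 193 with 18.4 in library 1 and 13.4 in library 2. The adaptor genes Tyrobp and Fcer1g had 3 each, ranked up to 758 and 1641, and the kinase gene Lyn had 14, ranked up to 830. Relb, an NF-κB subunit gene, had 1. Card9, Bcl10 and Malt1, whose products form the complex downstream of Syk, had 1, 2 and 3 regions. Src, Btk, Ptpn11, Nfatc2 and Map3k7 had none. Of 45 other genes with a C-type lectin domain, 11 had a region (24.4%), against 31.6% of all genes. They included Cd302, Cd69 (5 regions, ranked up to 192), Olr1 (5 regions, ranked up to 544), Klrb1b, Klrb1c and Cd93, and those without any included Acan, Asgr1, Asgr2, Bcan, Cd207 and Cd248.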

How the data were processed

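PPARγ HT-ChIPmentation was analysed as 2 ChIP libraries. The 2 input libraries served the authors as controls and were not analysed here. Per the submitters' processing notes and the study's methods, the authors processed the reads with CASAVA and bcl2fastq 2.20.0.422, trimmed with cutadapt, used Bowtie2 and SAMtools with mm10, and called peaks with MACS3 library by library, each set against its own input, with q up to 0.05. The deposited lists give positions, a fold enrichment (linear ratio of ChIP over input), −log10 of the p-value and q-value, a score derived from the −log10 q-value, and the summit. Lists called at low depth miss weak peaks, and sparse input can affect calls. The sequencing totals in the study's supplement are not used, and the lists give no depth.

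Peaks of both libraries overlapping by at least 1 bp were merged, and merged intervals with peaks of both were kept. Fold, percentile and summit of a region in a library are those of its peak with the highest fold. Regions with 1 peak in each library were 70.1% of lectin regions, against 79.6% of all regions. Each region was assigned by its centre to the nearest TSS of a protein-coding gene with a curated transcript in RefSeq GRCm38.p6 (annotation release 108.20200622) on chromosomes 1 to 19 and X, with Python 3.11.15, pandas 2.3.3, NumPy 2.4.6, SciPy 1.17.1 and pysam 0.24.0. The merging, assignment and motif search were tested on simulated data. Wilson intervals (95%) treat regions as independent and cover counting error only. The lectin genes, subfamilies, lists and motifs were chosen with earlier results of these data known. Of 46 list entries for other C-type lectin domain genes, 45 matched a gene. By rule, every lectin gene with a region is named with its best region, the genes with most regions with all of theirs, and 21 genes whatever their values. Of the comparison lists, up to 6 best-ranked members and up to 6 members without a region are named. A gene that this rule selects is not reported here. Card9, Bcl10 and Malt1 were named outside this rule, after their values were seen. Promoter sequences came from RefSeq. Alternatives were a q of 0.001, a fold of at least 5, other overlap rules, each library alone, other gene assignments, distances and motif windows.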

Additional observations from a re-analysis of the deposited data

How the results depend on the processing

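The number of lectin genes with a consensus region was 17 to 20 under every alternative that used both libraries, against 20 as reported, and 24 to 26 with either library left out. Among all genes the share with a region was 22.7% for peaks with a fold of at least 5, 22.4% when overlaps had to be reciprocal at 50% and 24.2% when summits had to lie within 100 bp. The number of lectin regions depended more on the definition, about as much as that of all regions. It was 87 as reported, 47 with a fold of at least 5 (54.0% of the reported number, against 53.0% for all regions), 41 with a reciprocal overlap of 50% (47.1%, against 51.5%), 43 with summits at most 100 bp apart (49.4%, against 56.4%), and 136 to 344 with a library left out (136 peaks of library 2 alone, 344 of library 1 alone). Clec4n and Clec5a each lost their regions under 2 of these definitions (Clec4n with the reciprocal overlap and the summit rule, Clec5a with the fold and the reciprocal overlap), Clec12a under the summit rule, Clec16a under the reciprocal overlap and Clec4b2 under the fold. The number of regions of a single gene moved beyond 1.5 times for 13 of the 20 genes with the fold, 14 with the reciprocal overlap and 12 with the summit rule, and Clec9a had 1 and 2 of 6 under the last 2 of these. Clec2l lost all 6 when regions were assigned by gene body from 2 kb upstream, and Mrc1 kept 8 of 15 when noncoding genes could take regions. The share centred near a TSS was 38.3% with a fold of at least 5 (against 38.04% of all such regions) and 17.2% with 1 kb in place of 3 kb (against 23.8%), beside 26.4% as reported. Within 50 bp of the summit the shares with PU.1 and C/EBP letters were 1.15% and 6.90% (against 3.90% and 8.29% of all regions), and within 200 bp the shares with C/EBP letters and the hexamer were 28.7% and 23.0% (against 24.2% and 25.6% of all regions). The list of other C-type lectin domain genes had 12 to 22 of 45 genes with a region with a library left out, the higher number from library 1 alone, against 11 with both. The share of all genes rose too, to 34.9% with library 2 alone and 60.6% with library 1 alone, against 31.6% with both. The cause of these changes was not tested, beyond the construction of the stricter rules. A q of 0.001 and a limit of 50 kb left the numbers of lectin genes and lectin regions within 1.5 times of those reported, but at a q of 0.001 Clec4a3 had 2 regions in place of 4 and Clec4n 1 in place of 2. No paired analysis was possible because the inputs that share replicate numbers with the ChIP libraries were not analysed here and no result comes from a test.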
